A study of Mus musculus with 9 samples.

Results

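The 10 immediate early genes described here were Fos, Fosb, Jun, Junb, Jund, Egr1, Ier2, Ier3, Atf3 and Zfp36. They were chosen by gene symbol among the 24132 symbols of the expression table, and each had 1 row. They were followed through 9 RNA libraries of mouse embryonic stem cells (ESCs) of the V6.5 line, a 129/B6 F1 hybrid, grown without feeders and with LIF. One ESC line had been infected with a lentivirus that carried no tagged WDR5 (empty vector), another with FLAG-HA tagged human WDR5 of wild type sequence (WT), and the last with FLAG-HA tagged human WDR5 F266A, a mutant in which 1 phenylalanine is replaced by alanine and which the study made to lose RNA binding. WDR5 is a subunit of the MLL histone methyltransferase complexes. All 3 lines went through puromycin selection and kept their own mouse Wdr5, the tagged lines were selected clones with tagged protein near the endogenous level, and the F266A construct also had a short N-terminal truncation. RNA crosslinked with formaldehyde was purified through the FLAG tag and then the HA tag (RIPiT-seq), with 2 immunoprecipitations (IPs) and 1 input library per line.

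Immediate early genes are switched on within minutes of a growth factor, stress or depolarising signal, by kinases that act on transcription factors already bound at their promoters, so that no new protein is needed. Fos and Jun family proteins pair through a leucine zipper to form AP-1, Egr1 is a zinc finger transcription factor, and several members act as brakes on the same response. Their mRNAs are typically short-lived, because AU-rich elements in the 3′ UTR recruit decay proteins. Zfp36, also known as tristetraprolin, is one of these decay proteins and is itself encoded by an immediate early mRNA. In cultured ESCs, serum and FGF-ERK signalling are known inputs to such genes.

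Depth, estimated from the smallest steps of the RPKM values, was 37500000 to 50200000 reads in the inputs and 13400000 to 27300000 reads in the IPs. RPKM scales reads to the length of the transcript and to the mapped reads of the library, and can be compared between genes. All 10 pluripotent ESC markers examined, among them Pou5f1 and Nanog, were at 1 RPKM or above in every library. Of 10 fibroblast markers, Col3a1, Dcn, Lum and Mgp were at 0 in all libraries, and 2 reached 1 RPKM in some library. These were Thy1, at 0.391 to 1.55 RPKM, and Fbln1, at 0.614 to 2.01 RPKM. The libraries of the F266A line did not match one another. The summed RPKM of 3 Y-linked genes was 0.0383 in F266A IP replicate 1 but 4.43 in the input and 7.21 in IP replicate 2 of this line, against 7.41 to 9.48 in the empty vector line and 0.182 to 0.324 in the WT line. Summed primitive endoderm markers were at 17.9 RPKM in F266A IP replicate 1 but at 46.2 in the input and 57.8 in IP replicate 2, against 18 to 25.1 in the 6 other libraries. Of these 10 endoderm markers, 5 reached 1 RPKM in some library, and Foxa2 was at 0 in 5 libraries. Sparc alone made up 12.2 of the 17.9 RPKM in F266A IP replicate 1. In that library Gata4, Gata6, Sox7, Dab2, Pdgfra and Col4a1 lay above all empty vector and WT libraries, as in Dab2 with 0.916 against at most 0.261 RPKM. Sox17, Foxa2, Lama1 and Sparc did not. Each of the 10 was lower there than in the F266A input and IP replicate 2. Calls of members that rest on the F266A IPs, and the main values beside them, are therefore given also without F266A IP replicate 1. In those fits the F266A IPs are 1 library, which is assumed to vary like the IPs of the other lines. Whether these differences bear on the results was not tested.

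The pentamer ATTTA, the core of AU-rich elements, occurred at least once in the 3′ UTR of 9 of the 10 members and was not found in that of Ier2. It occurred 3 or more times in 5 members, namely Fos with 4, Jun with 4, Ier3 with 5, Atf3 with 3 and Zfp36 with 3. Of 19814 mouse transcripts with an annotated 3′ UTR, 60.9% held at least 1 and 30.3% at least 3. A match is a description of the letters, not a measured site. The windows of 30 bases below show 4 members in which a window held 2 pentamers, with each pentamer in capitals, read 5′ to 3′ on the mRNA strand from the mm9 annotation. The windows lie at chr12:86818050-86818079 (+) for Fos, chr4:94715898-94715927 (−) for Jun, chr17:35959429-35959458 (+) for Ier3 and chr7:29161977-29162006 (−) for Zfp36, all inside the 3′ UTR.
Fos: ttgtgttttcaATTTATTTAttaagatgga
Jun: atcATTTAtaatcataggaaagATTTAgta
Ier3: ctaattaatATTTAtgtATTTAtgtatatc
Zfp36: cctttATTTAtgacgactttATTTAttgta
In Fos the 2 pentamers share a base, and in Ier3 and Zfp36 they stand apart.

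Promoter windows from RefSeq (GRCm38.p6, 250 bases before to 50 after the gene start) matched 8 of the 10 members, all but Egr1 and Ier2. Both strands were searched, and sites outside these windows were not. A CArG box, the motif named for serum response factor, was found in 1 of 8 members, Zfp36, against 1.63% of 32851 promoters. The core of the cAMP response element, TGACG, was found in 4 of 8 (Fos, Fosb, Junb and Atf3), against 20.8%, and the full element TGACGTCA in none of 8, against 1.79%. The AP-1 site, TGACTCA or TGAGTCA, was found in none of 8, against 5.2%. The GC box GGGCGG was found in 6 of 8, against 35.7%, and a TATA box, TATAAA or TATATA, in 2 of 8, against 17.1%. The TATA match began 33 bases before the annotated gene start in Fos, but at the gene start itself in Junb. The GC box of Zfp36 shares 1 base with its CArG box. The 2 windows below are shown because Zfp36 had the highest level of the members in these cells and Fos, the prototype of the group, one of the lowest. For Zfp36, chr7:28379179-28379478 (−), the capitals mark the CArG box.
Zfp36: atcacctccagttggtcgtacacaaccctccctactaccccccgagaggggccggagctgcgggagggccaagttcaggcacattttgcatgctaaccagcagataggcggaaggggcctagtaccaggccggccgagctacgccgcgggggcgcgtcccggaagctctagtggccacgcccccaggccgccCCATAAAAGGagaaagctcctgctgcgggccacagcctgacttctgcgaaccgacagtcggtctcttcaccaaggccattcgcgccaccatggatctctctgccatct
For Fos, chr12:85473640-85473939 (+), the capitals mark 2 TGACG cores and the TATA box.
Fos: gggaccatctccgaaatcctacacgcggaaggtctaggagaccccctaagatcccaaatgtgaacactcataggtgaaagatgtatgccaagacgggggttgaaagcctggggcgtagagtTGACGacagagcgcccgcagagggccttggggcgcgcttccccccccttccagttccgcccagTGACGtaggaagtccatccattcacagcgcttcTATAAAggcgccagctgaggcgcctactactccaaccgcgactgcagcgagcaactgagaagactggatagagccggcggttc
No measurement here bears on factor binding at these windows.

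The members spanned a wide range of levels in these cells, for which the labels name no stimulus. Mean input RPKM was 10.1 for Zfp36, 5.31 for Egr1, 2.97 for Ier2, 2.59 for Ier3, 1.72 for Jund, 1.25 for Junb, 0.341 for Jun, 0.288 for Atf3, 0.161 for Fos and 0.0191 for Fosb. Zfp36 was above every other member in all 9 libraries, at 8.18 RPKM or more. Ier2 and Ier3 overlapped, as did Ier3 and Egr1, since Egr1 was between 2.97 and 3.95 RPKM in the F266A line. In that line Ier2 lay above Egr1 in every library. Jund lay above Ier3 in the F266A input (2.18 against 1.97 RPKM) and in F266A IP replicate 2 (3 against 2.44 RPKM). Fos and Atf3 overlapped as well. The order within these pairs is not settled. The summed RPKM of the 10 members was 22.6 to 27 in the inputs and 29.7 to 39.2 in the IPs.

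**Figure D1:**
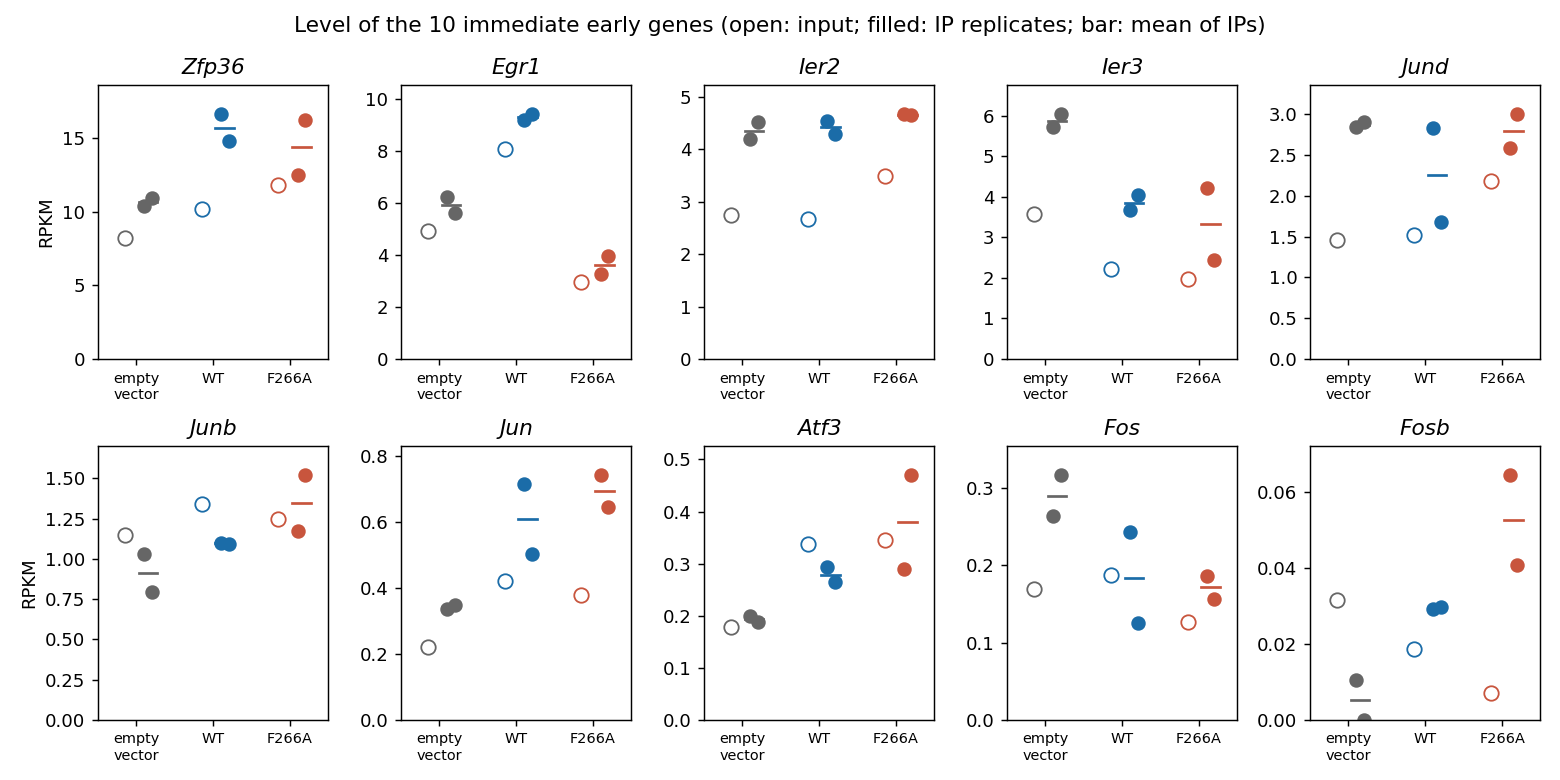
Level of each member in RPKM (linear axis from 0, a scale of its own for each gene) in the 3 lines, with the input as an open circle, the 2 IPs as filled circles and a bar at the mean of the IPs. Among the 6 members with the highest levels Egr1 differs most between lines, at 8.06 to 9.40 RPKM in WT and 2.97 to 3.95 RPKM in F266A, while Fosb stays at or below 0.0645 RPKM.

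The Fos family was barely detected. Fos (4 exons, chr12:86814840-86818223, mm9, + strand), the prototype AP-1 subunit, had 0.170 RPKM in input against 0.264 and 0.317 in IPs for empty vector, 0.188 against 0.243 and 0.125 for WT, and 0.127 against 0.186 and 0.157 for F266A. This corresponds to an estimated 7 to 18 reads per library, and the empty vector IPs lay above the other 4. Fosb (4 exons, chr7:19888070-19895394, − strand), a Fos paralog, had 0.0317 RPKM in input against 0.0106 and 0 in IPs for empty vector, 0.0186 against 0.0292 and 0.0298 for WT, and 0.0071 against 0.0645 and 0.0407 for F266A. These values rest on an estimated 0 to 6 reads. The 0 in empty vector IP replicate 2 allows up to 0.0597 RPKM, the level of 3 reads at that depth (counting error only), which covers all other Fosb values but 1. Differences in Fosb were not detectable at this depth.

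Among the Jun family, which supplies the partner subunits of AP-1, Jund and Junb were above Jun. All 3 genes have a single exon. Jund (chr8:73221638-73224515, + strand), the member of the family least tied to stimulation, had 1.46 RPKM in input against 2.84 and 2.90 in IPs for empty vector, 1.52 against 2.83 and 1.68 for WT, and 2.18 against 2.59 and 3 for F266A. Both WT IPs lay below both empty vector IPs, one of them barely (2.83 against 2.84 RPKM) and the other close to its input. Junb (chr8:87500811-87502617, − strand) had 1.15 RPKM in input against 1.03 and 0.793 in IPs for empty vector, 1.34 against 1.1 and 1.09 for WT, and 1.25 against 1.17 and 1.52 for F266A. It was the member with the fewest IPs above their input, 1 of 6. Jun (chr4:94715725-94718913, − strand) had 0.222 RPKM in input against 0.335 and 0.349 in IPs for empty vector, 0.420 against 0.715 and 0.504 for WT, and 0.380 against 0.743 and 0.647 for F266A. The empty vector line was lowest for Jun in both fractions. The exons of Jun share 232 bases with the antisense gene BC042782 and those of Jund share 543 bases with the antisense gene Gm11175, and because the sources used here do not say that counting used the strand, reads of these pairs cannot be told apart.

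Atf3 (4 exons, chr1:192994175-193007219, − strand), a stress-induced zipper protein that dimerises with Jun proteins, had 0.179 RPKM in input against 0.2 and 0.187 in IPs for empty vector, 0.338 against 0.293 and 0.264 for WT, and 0.346 against 0.290 and 0.470 for F266A. As for Jun, all 3 empty vector libraries lay below all 6 others, on an estimated 5 to 18 reads in the empty vector line and 12 to 29 in the others. Separation of IPs was common among the genes tested below, which do not include Atf3 and Jun. There the WT and empty vector IPs did not overlap for 39% of genes, and the F266A and empty vector IPs for 54.5%.

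Egr1 (2 exons, chr18:35020861-35024638, + strand), a zinc finger factor downstream of ERK, had 4.91 RPKM in input against 6.23 and 5.61 in IPs for empty vector, 8.06 against 9.20 and 9.40 for WT, and 2.97 against 3.25 and 3.95 for F266A. The IPs of the 3 lines did not overlap, with WT highest and F266A lowest. The inputs, 1 per line, had the same order. In bulk RNA, fewer expressing cells and less RNA per cell cannot be told apart. These values rest on an estimated 206 to 1068 reads per library, and the exons share 8 bases with the antisense gene Gm17507. Ier2 (1 exon, chr8:87185230-87186751, − strand), a nuclear protein of the early response, had 2.74 RPKM in input against 4.20 and 4.52 in IPs for empty vector, 2.68 against 4.55 and 4.29 for WT, and 3.49 against 4.67 and 4.65 for F266A. Its IPs lay between 4.20 and 4.67 RPKM in all 3 lines. Ier3 (2 exons, chr17:35958629-35959868, + strand), an early response protein linked to cell survival, had 3.58 RPKM in input against 5.71 and 6.03 in IPs for empty vector, 2.21 against 3.66 and 4.03 for WT, and 1.97 against 4.21 and 2.44 for F266A. The empty vector line was highest in both fractions, and the 2 F266A IPs spread widely.

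Zfp36 (2 exons, chr7:29161803-29164274, − strand), whose protein destabilises mRNAs with AU-rich elements including its own, had 8.18 RPKM in input against 10.4 and 10.9 in IPs for empty vector, 10.2 against 16.6 and 14.8 for WT, and 11.8 against 12.5 and 16.2 for F266A. The empty vector line was lowest in inputs and in IPs, and the IPs of the other 2 lines overlapped. Its 3 pentamers, 2 of them in the window printed above, make it one of the members that carry the motif its own protein is known to bind.

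For the tests, a gene had to reach 1 RPKM in at least 2 libraries. This filter kept 9787 symbols and 6 of the 10 members, Junb, Jund, Egr1, Ier2, Ier3 and Zfp36. Fos, Fosb, Jun and Atf3 did not pass and are given by values. Tests were made on log2 (RPKM + 1), which understates the change of low genes, with limma and Benjamini-Hochberg adjustment over all 9787 genes. The labels do not say whether the 2 IPs of a line came from separate cultures, so the p-values measure only the spread between these libraries, which may be technical.

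The first comparison asked whether the mRNAs were more abundant in IPs than in the input of the same line, a difference called the enrichment score below. Over the 3 lines, 4 of the 6 tested members were higher in the IPs (Ier3, Ier2, Jund and Zfp36) and none was lower, where 56.4% of all tested genes were higher and 0.47% lower. The median score was 0.40 over the 6 members and 0.30 over all tested genes. The share among the members was thus near that of all genes, and scores above 0 made up 87.7% and 88% of tested genes in the empty vector IPs, which hold no tagged protein, and 85.5% and 89.8% in the WT IPs.

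Ier3 was higher by 0.56 ± 0.13 (log2, SE; adjusted p = 0.00931), with mean IP over input of 1.64 in empty vector, 1.74 in WT and 1.69 in F266A. Ier2 was higher by 0.47 ± 0.075 (adjusted p = 0.00371), Jund by 0.42 ± 0.12 (adjusted p = 0.0201) and Zfp36 by 0.39 ± 0.10 (adjusted p = 0.0150). Without F266A IP replicate 1 the calls held, at 0.46 for Ier3 (adjusted p = 0.00503), 0.47 for Ier2 (0.00487), 0.44 for Jund (0.0214) and 0.45 for Zfp36 (0.00643). For these 4 genes and for Egr1 all 6 IPs lay above the input of their line, as they did for 66.3% of tested genes. Egr1 had a score of 0.21 ± 0.087 that missed the threshold (adjusted p = 0.0700), and passed it without F266A IP replicate 1 (0.24, adjusted p = 0.0333). Junb had a score of -0.093 ± 0.097 (adjusted p = 0.406; -0.058 without that library). After median centring of the libraries or quantile normalization, which take away the shift common to all genes, no member passed the threshold. Of the members outside the test, Jun had 6 of 6 IPs above the input, Fos 5, Fosb 4 and Atf3 3.

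The scores also differed in how they stood against other genes of the same library. The median score of all tested genes was 0.27 and 0.26 in the empty vector IPs, 0.27 and 0.27 in the WT IPs and 0.39 and 0.35 in the F266A IPs. The median over the 6 tested members was 0.39 and 0.47 in the empty vector IPs, 0.57 and 0.35 in the WT IPs, and 0.14 and 0.33 in the F266A IPs. Members above the library's own median numbered 5 and 4 of 6 in the empty vector IPs, 4 and 3 in the WT IPs, and 1 and 1 in the F266A IPs. In F266A IP replicate 1 the 1 gene was Ier3 (score 0.81) and in replicate 2 it was Zfp36 (score 0.43), so no gene stood above that median in both. Both scores of a line subtract the same input library, so the 2 counts of a line are not independent.

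**Figure D2:**
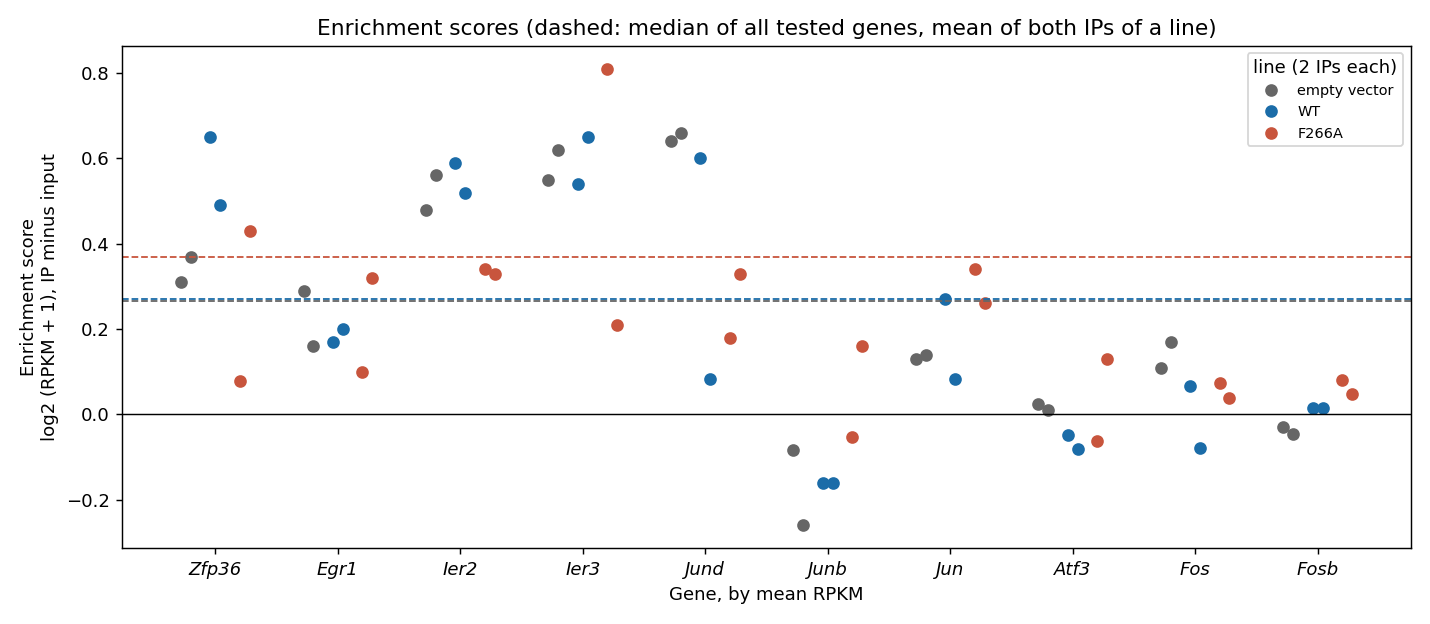
Enrichment score, the difference in log2 (RPKM + 1) between an IP and the input of its line, for the 10 members ordered by mean RPKM, with 1 point per IP coloured by line; dashed lines give the median of all tested genes per line (mean of its 2 IPs). Ier2, Ier3 and Jund have the highest scores in the empty vector line, and Junb lies below 0 in 5 of 6 IPs.

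The second set of comparisons asked whether the enrichment score differed between lines, which is how the study sought RNAs bound by WT but not by F266A or by the control. No member passed the threshold in any of the 3 comparisons, and 0% of all tested genes did in either direction with limma. At an unadjusted p under 0.05 there were 0 members in each, and 259 genes for WT against F266A, 173 for WT against empty vector and 243 for F266A against empty vector.

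The intervals show what this design could have missed. Zfp36 had a WT minus F266A difference of 0.32, with a 95% interval from -0.26 to 0.90. It was 0.14 without F266A IP replicate 1, where Ier3 stood above it at 0.38, and 0.49 without replicate 2. Its scores were 0.65 and 0.49 in WT and 0.078 and 0.43 in F266A, and without F266A IP replicate 1 the F266A minus empty vector difference of -0.089 turned to 0.085. Egr1, the tested member whose IP level differed most between lines, had score differences near 0, at -0.025 for WT minus F266A (-0.52 to 0.46), -0.042 for WT minus empty vector (-0.53 to 0.45) and -0.017 for F266A minus empty vector (-0.51 to 0.47). Without F266A IP replicate 1 the first was -0.14 and the last 0.094. Among the 6 tested members Jund had the most negative difference, -0.40 for F266A minus empty vector (-1.08 to 0.28), or -0.32 without F266A IP replicate 1, where Ier3 was lower at -0.37. Each line has 1 input, so the spread between inputs was not measured, and a p that misses the threshold does not show that the lines act alike.

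**Figure D3:**
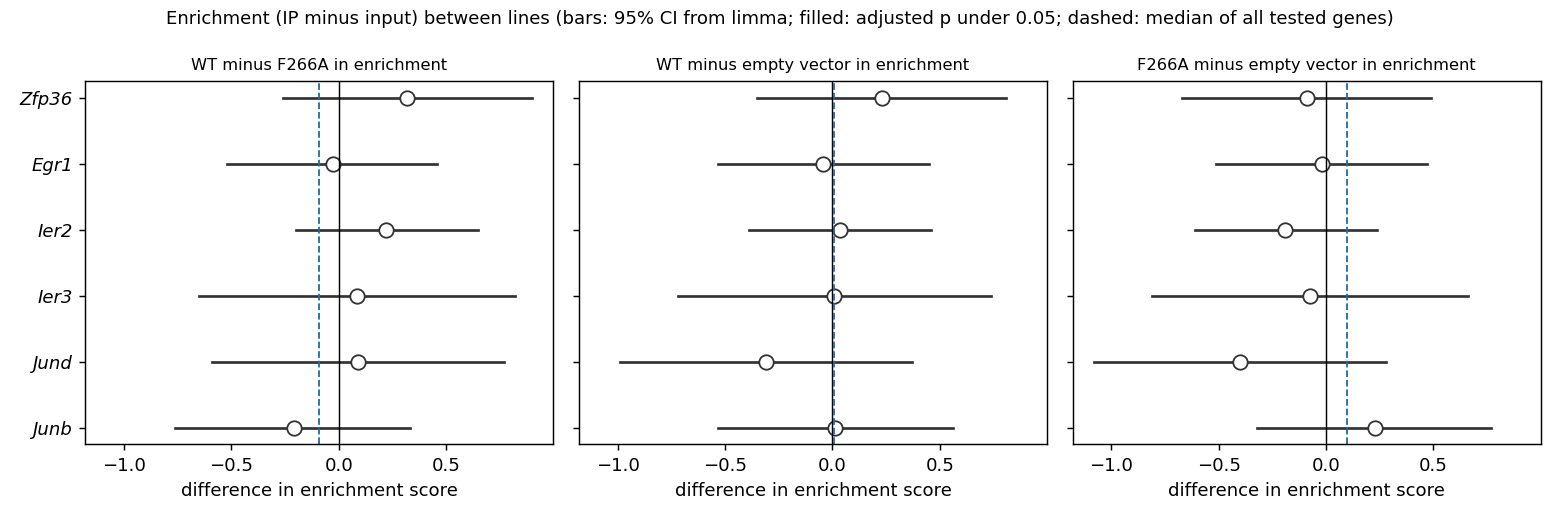
Difference in enrichment score between lines for the 6 tested members, 1 panel per pair of lines, with the limma estimate as a circle, its 95% interval as a bar and the median of all tested genes as a dashed line. Every interval includes 0, and Egr1 lies between -0.042 and -0.017 in the 3 panels.

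A rule after the study's methods for a WT-bound RNA has no error term: the lower of the 2 WT scores must exceed 0 and the highest of the 4 other scores. The study scored log2 RPKM over a transcriptome assembled from several gene sets, while the scores here are on log2 (RPKM + 1) over RefSeq symbols, so the rule is an adaptation. Of the 10 members 1 met it, Zfp36, where 4.79% of all 24132 symbols did. Its lower WT score of 0.49 stood against a highest other score of 0.43. With the roles exchanged, the empty vector line had 2 members that met the same rule, Fos and Jund, where 3.96% of symbols did, and the F266A line had 1, Fosb, where 13.6% did.

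The third set compared the level in the IPs directly between lines, without the inputs. Between WT and F266A, 1 of the 6 tested members passed, Egr1, which was higher in WT, where 0.777% of tested genes were higher and 0.388% lower. The difference was 1.17 ± 0.12 (log2, SE; 95% interval 0.88 to 1.45; adjusted p = 0.0279), with mean IP levels of 9.30 ± 0.141 RPKM in WT and 3.60 ± 0.499 RPKM in F266A (SD, n = 2), a ratio of 2.58. The inputs, 1 per line, gave a like ratio of 2.72. Without F266A IP replicate 1 the difference was 1.06 (adjusted p = 0.0148). Without WT IP replicate 1 or 2, or empty vector IP replicate 1 or 2, it stayed between 1.15 and 1.18 but the adjusted p was 0.0569, 0.199, 0.0728 and 0.0743, and no gene at all passed in those 4 fits. With no filter on low values it was 0.195.

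The 5 other members did not pass between WT and F266A. Ier3 had a difference of 0.19 (95% interval -0.23 to 0.62), Zfp36 0.13 (-0.21 to 0.46), Ier2 -0.065 (-0.31 to 0.18), Junb -0.16 (-0.47 to 0.16) and Jund -0.24 (-0.63 to 0.15). The IPs of WT and F266A did not overlap for 3 of the 6, Egr1, Junb and Ier2, where 41.3% of tested genes did not. Without F266A IP replicate 1 the values were 0.49 for Ier3 (adjusted p = 0.102), -0.045 for Zfp36, -0.062 for Ier2, -0.26 for Junb and -0.32 for Jund, and none of them passed.

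Between F266A and empty vector, 1 of the 6 tested members passed, again Egr1, which was lower in F266A, where 3.38% of tested genes were lower and 1.16% higher. It fell by 0.59 ± 0.12 on the log2 scale (adjusted p = 0.0404), with mean IP levels of 3.60 RPKM in F266A and 5.92 ± 0.443 RPKM in empty vector (SD, n = 2), and the ratio was 0.608 in IPs and 0.605 in inputs. The call was lost without F266A IP replicate 1 (-0.48, adjusted p = 0.0816), without either WT replicate (adjusted p of 0.0602 and 0.0606), without either empty vector replicate (0.328 and 0.199) after quantile normalization (0.0585) and with no filter (0.146). Ier3 had a difference of -0.70 ± 0.18 that missed the threshold (adjusted p = 0.0754), and passed it without F266A IP replicate 1 (-1.0, adjusted p = 0.0113), the replicate in which it stood at 4.21 RPKM against 2.44 in the other. Zfp36 had a difference of 0.39 ± 0.15 (adjusted p = 0.179), or 0.57 without that replicate (adjusted p = 0.0657). The IPs did not overlap for 5 of 6 members, all but Jund, where 54.5% of tested genes did not.

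Between WT and empty vector no member and no other gene passed with limma, 0% in either direction, while 557 genes and 3 of the 6 members had an unadjusted p under 0.05. The 3 were Egr1 at 0.57 (adjusted p = 0.463), Zfp36 at 0.52 (adjusted p = 0.683) and Ier3 at -0.50 (adjusted p = 0.819). The IPs did not overlap for 5 of 6 members, all but Ier2, where 39% of tested genes did not. The 3 comparisons share their IP libraries and are not independent of one another.

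A model with line and fraction as separate terms, chosen after these values were seen, uses the input together with both IPs of a line. In it Egr1 differed between all 3 pairs of lines, by 1.17 for WT minus F266A (adjusted p = 0.000713), 0.59 for WT minus empty vector (adjusted p = 0.0323) and -0.59 for F266A minus empty vector (adjusted p = 0.00171). Of all tested genes, this model called 7.25% higher and 2.72% lower in WT than in F266A, 0.0307% higher and 0.143% lower in WT than in empty vector, and 5.45% higher and 11.3% lower in F266A than in empty vector. In the same model Ier3 was lower in F266A than in empty vector (-0.67, adjusted p = 0.00755) and Zfp36 was higher (0.42, adjusted p = 0.0301). These 5 calls held in the model without F266A IP replicate 1, with adjusted p from 0.000174 to 0.00918. This model assumes that enrichment is the same in every line. It also treats the 3 libraries of a line as independent observations, although they come from the same line. Its p-values therefore do not measure the spread between infections or clones. Each construct has 1 line, so the tagged protein and the line itself cannot be told apart. The Y-linked RNA of the F266A libraries differed as given above, and whether they came from 1 clone was not tested.

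**Figure D4:**
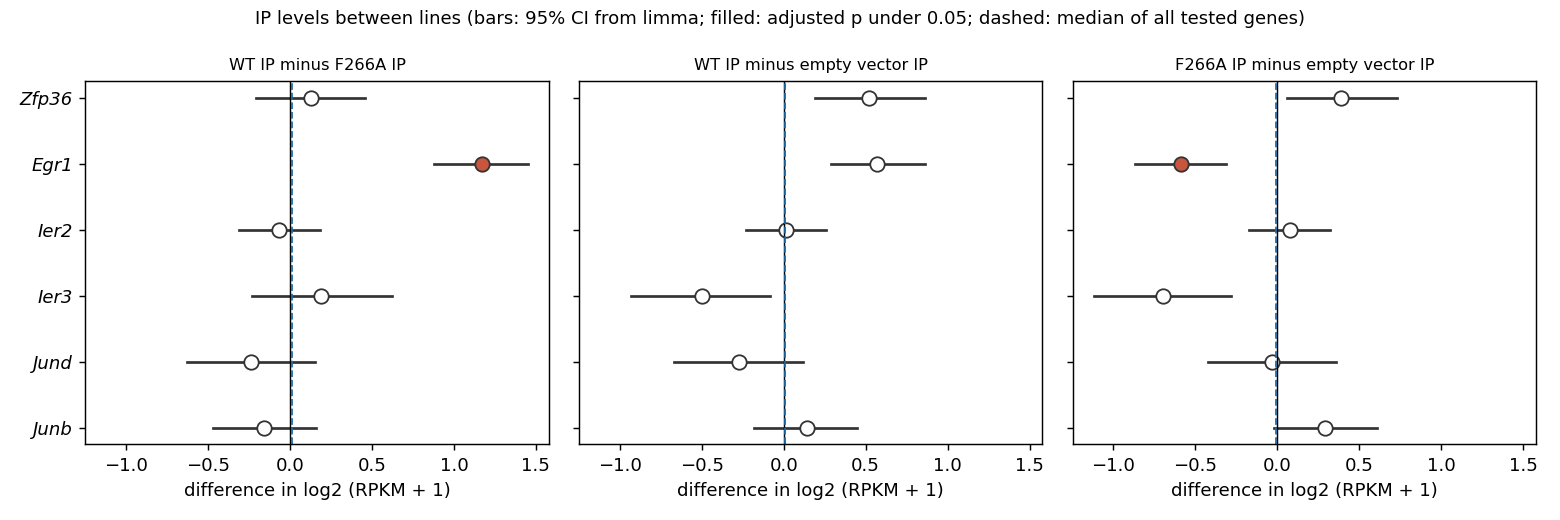
Difference in IP level between lines for the 6 tested members on the log2 (RPKM + 1) scale, 1 panel per pair of lines, with the limma estimate as a circle (filled where adjusted p is under 0.05), its 95% interval as a bar and the median of all tested genes as a dashed line. Egr1 is filled at 1.17 in WT minus F266A and at -0.59 in F266A minus empty vector.

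Other genes of the early response were examined as a list of 46, of which 32 passed the filter. In IPs over inputs 12 of the 32 were higher and none was lower, with a median of 0.24 beside 0.30 for all genes, of which 56.4% were higher. They included Dusp1, a phosphatase that switches MAP kinases off (0.65, adjusted p = 0.00331), the survival factor Mcl1 (0.57, adjusted p = 0.00452) and the growth regulator Myc (0.67, adjusted p = 0.00971). No gene of the list differed in enrichment score between lines.

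In IP levels the list showed changes in both directions. Between WT and F266A, 1 of 32 was higher in WT, the transcription factor Klf2 (1.01, adjusted p = 0.0451; without F266A IP replicate 1, 1.28, adjusted p = 0.0128), and none was lower, where 0.777% of tested genes were higher. No gene passed in that comparison without either WT or either empty vector replicate, and the Klf2 call was lost without F266A IP replicate 2 too. Klf2 had 4.92 RPKM in input against 7.17 and 5.99 in IPs for empty vector, 3.58 against 6.09 and 5.26 for WT, and 1.08 against 2.96 and 1.75 for F266A. Klf2 is also one of the ESC markers used above. Unlike Egr1, Klf2 was at its highest in the empty vector line. Between F266A and empty vector, 3 of 32 were higher in F266A, the stress gene Gadd45a (1.02, adjusted p = 0.0307), Myc (1.15, adjusted p = 0.0368) and Phlda1 (0.86, adjusted p = 0.0401). In that comparison 2 were lower, Klf2 (-1.20, adjusted p = 0.0187) and Gadd45g (-0.79, adjusted p = 0.0446). Of all tested genes 1.16% were higher and 3.38% lower. Without F266A IP replicate 1, Klf2, Gadd45a and Phlda1 still passed, at -1.46, 0.74 and 1.04, while Myc (1.03, adjusted p = 0.0765) and Gadd45g (-0.88, adjusted p = 0.0535) did not. None of these 5 passed without either empty vector replicate, fits in which 0 and 4 genes passed in all, and the calls of Gadd45a, Phlda1 and Gadd45g were lost without either WT replicate. The calls of Myc, Phlda1 and Gadd45g were also lost without F266A IP replicate 2. Between WT and empty vector none passed.

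Upstream of these genes, a list of 24 kinases and transcription factors of the ERK, JNK and p38 routes had 22 tested members, of which 16 were higher in IPs and none lower (median 0.28), beside 56.4% of all tested genes higher. They included Mapk14, the p38 alpha kinase (0.56, adjusted p = 0.00325), Map2k1, the MEK1 kinase (0.56, adjusted p = 0.00372), and the coactivator Ep300 (0.34, adjusted p = 0.0153). Between lines 1 of 22 differed in IP level, Mapk3, the ERK1 kinase, which was lower in F266A than in empty vector (-0.60, adjusted p = 0.0399; without F266A IP replicate 1, -0.61, adjusted p = 0.0628), where 3.38% of tested genes were lower. The call was lost in each of the 6 fits that left out 1 IP, and no gene passed without empty vector IP replicate 1. It had 11.4 RPKM in input against 15.3 and 13.9 in IPs for empty vector, and 7.42 against 9.41 and 9.24 for F266A.

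Zipper proteins that can pair with AP-1 subunits formed a list of 17, of which 10 were tested, 5 were higher in IPs and none lower (median 0.34), beside the 56.4% of all genes. The stress regulator Atf4 (0.62, adjusted p = 0.00937), the oxidative stress factor Nfe2l2 (0.42, adjusted p = 0.00784) and Ddit3 (0.48, adjusted p = 0.00830) were among them. Factors of AU-rich mRNA decay and deadenylation formed a list of 24, of which 23 were tested, 13 were higher in IPs and none lower (median 0.28), beside the same 56.4%. Hnrnpd (0.57, adjusted p = 0.00382), Khsrp (0.50, adjusted p = 0.00468), the deadenylase subunit Cnot3 (0.48, adjusted p = 0.00523) and the Zfp36 paralog Zfp36l1 (0.39, adjusted p = 0.00733) were among them. Neither list had a gene that differed between lines in IP level or in enrichment score.

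The members did not share one pattern over the 9 libraries. On the log2 scale Ier2 and Jund had a Pearson r of 0.83, while Ier3 and Junb had an r of -0.85, and Egr1 and Ier2 had an r of -0.055, as a description over libraries that share 3 lines and 2 fractions. Genes most like the mean of the 6 tested members, among 2557 with an SD of at least 0.3, included Ly6e (r = 0.99), Dstn, Chchd4 and Nqo2 (r = 0.98 each). Ly6e, a cell surface protein, had 6.72, 8.32 and 6.74 RPKM in the empty vector, WT and F266A inputs and 10.7 to 17 RPKM in the IPs, so its inputs all lay below its IPs.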

How the data were processed

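RIPiT-seq libraries (NuGEN Ovation v2 amplification, then ChIP-seq library preparation, single reads) were aligned by the authors with TopHat 1.1.3 to mm9. They deposited 1 RPKM value per RefSeq gene symbol and library (24132 symbols, 9 libraries, replicates not pooled), made with their own script, so a library with more reads on genes shifts all genes alike. The share of reads on genes was 20.1 to 22.6% in inputs and 27.2 to 29.5% in IPs. Strand use was not given in the sources used here. Values are RPKM and not counts, so no count model was the test. Depth and reads per gene were estimated here from the lowest RPKM steps and exon lengths.

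Genes that reached an RPKM of 1 in 2 or more libraries were tested on log2 (RPKM + 1) with limma 3.58.1 in R 4.3.3, with 1 coefficient per line and fraction and 3 residual degrees of freedom, eBayes with trend and Benjamini-Hochberg adjustment (threshold 0.05). The 4 gene lists (up to 5 genes named per list and comparison, by smallest adjusted p), the similar genes (the 5 with the highest r, 1 of them not reported here) and the motifs followed rules written into the design. The members and lists were chosen with earlier results of these data known. The fits were tested on simulated data. Alternatives were the pseudocount, the filters, normalization, each replicate left out, a block on replicate number and an additive model, with and without F266A IP replicate 1 (added after the values were seen). Where 1 IP of a line was left out, the remaining one was assumed to vary like the other lines' IPs. Annotation was GENCODE M1 (mm9), promoters RefSeq (GRCm38.p6).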

Additional observations from a re-analysis of the deposited data

Results flagged for a closer look

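In 2 members IPs lay above the input in both IPs of one line and below it in both IPs of another. For Fosb, IPs were above input in WT and below it in empty vector, a difference in enrichment score of 0.053, and likewise above input in F266A, a difference of 0.10. Fosb rests on an estimated 0 to 6 reads per library. For Atf3, IPs were above input in empty vector and below it in WT, a difference of 0.083 on an estimated 5 to 29 reads. Both genes missed the filter, so these differences were not tested there, and the limma fit with no filter gave adjusted p of 1, 0.795 and 1 for them.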

How the results depend on the processing

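Over the 566 refits of single members and comparisons, 503 kept both direction and side of the threshold, 22 kept the direction and lost the call, 10 gained a call and 31 changed sign, and no value that changed sign passed the threshold after the change. The cause was not tested except where a setting's own construction gives it. For IP minus input, members called numbered 1 with no filter and 1 with a filter at a mean of 5 RPKM, where only 2 members were tested, and 0 after quantile normalization or median centring, which remove the shift common to all genes (4 in the report). Genes called there were 3258, 2594, 239 and 153 in that order, against 5567. Egr1 became -0.15 and -0.10 under quantile normalization and median centring, and Zfp36 became -0.048 under the former.

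For WT IP minus F266A IP, no filter left 0 members and 0 genes (1 and 114 in the report), and genes called were 72 with the mean RPKM filter and 976 in the additive model. For F266A IP minus empty vector IP, no filter left 0 members and 2 genes and quantile normalization 0 members and 242 genes (1 and 445 in the report), while the additive model called 3 members and 1635 genes, and the mean RPKM filter 295 genes. For WT IP minus empty vector IP, genes called were 2 with no filter, 4 with the mean RPKM filter, 2 after quantile normalization and 17 in the additive model, 1 of them a member (0 in the report). In enrichment, genes called with no filter were 33 for WT minus F266A, 45 for WT minus empty vector and 22 for F266A minus empty vector, and a pseudocount of 0.1 called 88 for the last.

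Leaving out each replicate, WT IP minus F266A IP called 0 to 1 members and 0 to 196 genes, F266A IP minus empty vector IP 0 to 1 members and 0 to 480 genes, WT IP minus empty vector IP 0 to 7 genes and WT minus F266A in enrichment 0 to 2 genes. Values whose sign turned when 1 library was left out ranged from -0.14 to 0.085, -0.11 to 0.023 and -0.13 to 0.094 for Egr1 in WT minus F266A, WT minus empty vector and F266A minus empty vector enrichment, and from -0.22 to 0.38, -0.045 to 0.065 and -0.37 to 0.23 for Ier3. Other enrichment ranges were -0.0075 to 0.08 for Ier2 and -0.077 to 0.10 for Junb in WT minus empty vector, -0.17 to 0.35 for Jund in WT minus F266A and -0.26 to 0.085 for Zfp36 in F266A minus empty vector. In IP levels the ranges were -0.11 to 0.49 for Ier3, -0.50 to 0.017 for Jund and -0.045 to 0.30 for Zfp36 in WT minus F266A, -0.029 to 0.058 for Ier2 in WT minus empty vector and -0.11 to 0.046 for Jund in F266A minus empty vector.

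Other sign changes were in Egr1 WT minus F266A enrichment (0.027 under quantile normalization, 0.076 under median centring) and Egr1 F266A minus empty vector enrichment (0.001 with a pseudocount of 0.1). In WT minus empty vector enrichment, Ier3 became -0.0026 under median centring and Junb -0.056 under quantile normalization and -0.00066 under median centring. Ier2 became -7.3e-06 in WT minus empty vector IPs under median centring, and Jund 0.10 in F266A minus empty vector IPs in the additive model. The additive model without F266A IP replicate 1 called 1800 genes for WT IP minus F266A IP, 2531 and 3 members for F266A IP minus empty vector IP and 61 and 1 member for WT IP minus empty vector IP, with Zfp36 at -0.10 in the first and Jund at 0.17 in the second. To check whether the replicate numbers pair the samples, the other IP of each line was subtracted from its IP replicate 1. These differences correlated over genes at r of 0.26, 0.11 and 0.01 in the 3 pairs of lines. The numbers were therefore not taken to pair the samples. The replicate block changed no member's call and gave 7 genes for WT IP minus empty vector IP (0 without it). Depth limits Fos, Fosb and Atf3, with estimated reads of 0 to 29 per library.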
